A study of Sus scrofa with 48 samples.

Results

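NRN1, COL21A1, SLC35F3, PDZK1IP1 and OAZ3 are 5 genes whose liver signal differed strongly on average between pigs from the low and the high RFI line, and whose values spread widely or fell into separate groups of pigs within a line. They were chosen by the size of their line difference in these arrays, which is a measured value. Every probe on the array that carries the symbol of 1 of these genes, or a transcript accession that the reference table gives to it, was taken. This gave 14 of the 60305 probes of the array, of which 13 were among the 45236 probes tested. A probe was tested when it was well above background, as marked by the scanner software, on at least 12 arrays. The exception, the COL21A1 probe A_72_P693194, was above background on 1 array of each line. Because the line difference was used to choose the genes, it is given here as a description with no P value, and any count of probes past a threshold for line was fixed in part by the choice. Diet was tested.

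Residual feed intake (RFI) is the feed a pig eats beyond what its growth and maintenance predict, so pigs from a low RFI line are the more feed-efficient ones. Liver was taken from 48 purebred Large White barrows (castrated males), 24 from a line selected for low RFI and 24 from a line selected for high RFI over 8 generations. From 74 days of age, 12 pigs of each line were fed a high-fat high-fiber diet (HF) and 12 a low-fat low-fiber diet (LF), ad libitum, and all were killed 2 h after a meal. The design thus holds 4 groups, low RFI HF, low RFI LF, high RFI HF and high RFI LF, with 12 pigs each and 1 array per pig. The pigs of a line share its selection history, so a line difference is one between 2 selected populations.

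The genes have different roles. NRN1 encodes neuritin, a small protein held at the cell surface by a glycosylphosphatidylinositol anchor and known for promoting the growth of neurites. COL21A1 encodes the chain of type XXI collagen, a collagen associated with fibrils in the matrix around blood vessels and other tissues. SLC35F3 belongs to solute carrier family 35 and has been described as a thiamine transporter. PDZK1IP1 encodes a small membrane protein of epithelial cells that binds the scaffold protein PDZK1. OAZ3 encodes antizyme 3, known from male germ cells, which like other antizymes inhibits ornithine decarboxylase, the enzyme that starts polyamine synthesis.

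Values are log2 intensities with the background subtracted. The median of the tested probes was set to 0 on every array, so that 0 is the level of a middle probe. Arrays lay on 6 slides of 8, with 2 arrays per group on each slide, and were scanned on 2 days, with 6 arrays per group on each day. The share of probes well above background ran from 65.8% to 77.2% over the arrays, with 0 saturated spots. The liver was recognisable by its hepatocyte markers, 7 of 7 measured being above background on all 48 arrays. In whole tissue, fewer cells of a type and less RNA per cell cannot be told apart.

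The gene with the largest line difference of all named genes tested was NRN1, which was lower in the low RFI line. The other genes ranked 4 (COL21A1), 5 (PDZK1IP1), 6 (OAZ3) and 9 (SLC35F3) by the size of their line log2 fold-change. These ranks hold for background-subtracted values only, since the COL21A1 difference includes 7 pigs at background and was smaller than that of OAZ3 with the normexp background and without subtraction. COL21A1 and SLC35F3 were over-expressed in the low RFI line and the other 3 genes under-expressed. At P under 0.01 and a fold-change (FC) over 1.1, 10 of the 13 probes were past the threshold for line, beside 6.91% of all tested probes. Because these probes were picked for that contrast, nothing is read from their share. The 3 probes that were not past it belong to COL21A1, SLC35F3 and PDZK1IP1, which each had another probe with a large difference.

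**Figure D1:**
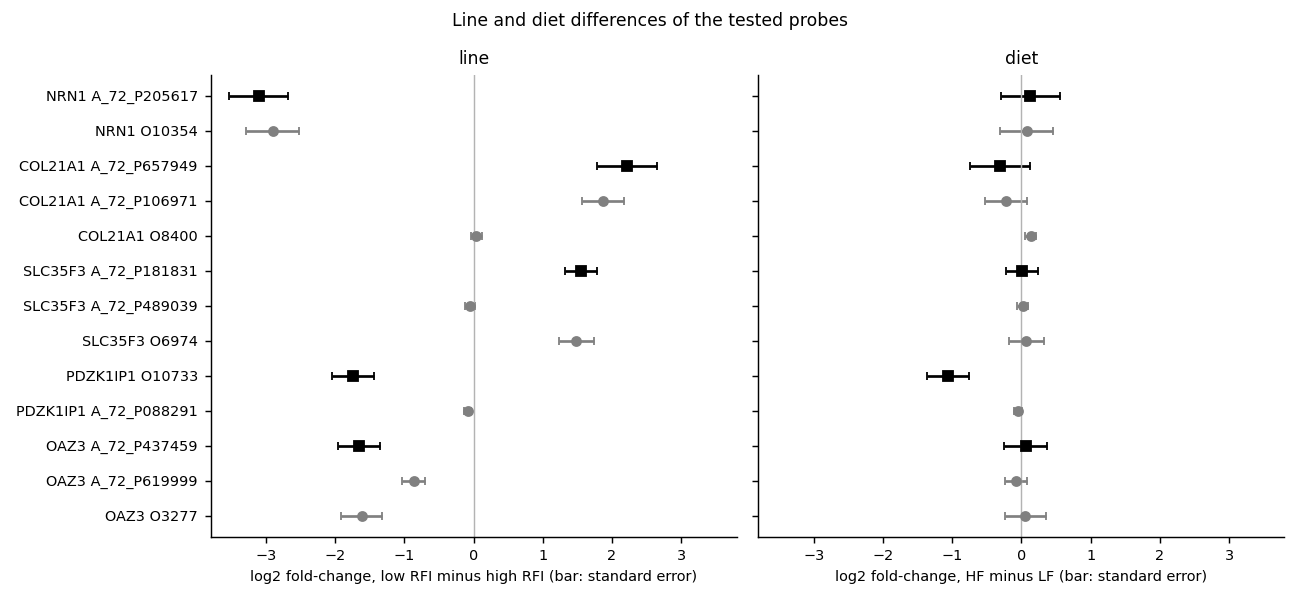
Log2 fold-change of each of the 13 tested probes for line (low RFI minus high RFI, left) and diet (HF minus LF, right), on the horizontal axis, with bars for the standard error. Black squares mark the probe with the largest line difference of each gene. Line values run from -3.11 for NRN1 to 2.21 for COL21A1, while for diet only the PDZK1IP1 probe O10733 lies near -1.06.

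**Figure D2:**
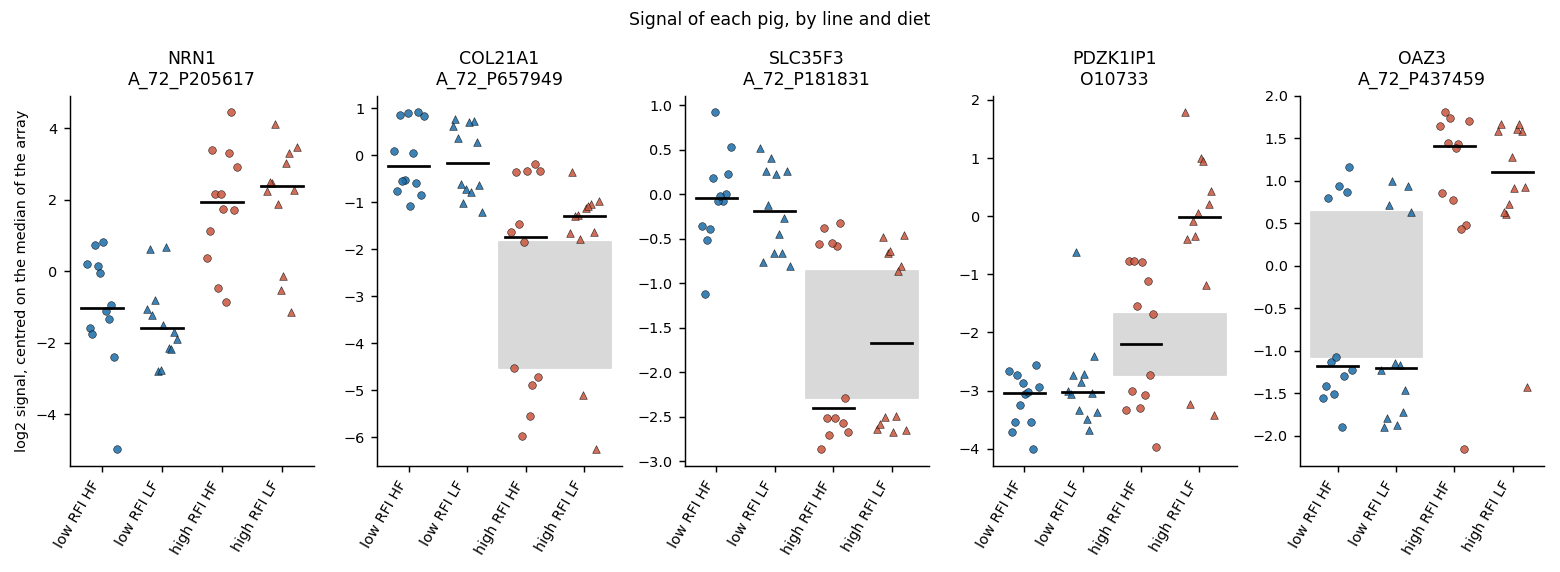
Centred log2 signal of every pig (vertical axis) by line and diet for the probe with the largest line difference of each gene. Points are pigs, black lines are group medians and grey bands are gaps of at least 1 on the log2 scale with 3 or more pigs on each side. OAZ3 has such a gap in the low RFI line, and COL21A1, SLC35F3 and PDZK1IP1 have one in the high RFI line.

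For NRN1, the probe A_72_P205617 ranged from -4.98 to 0.82 (median -1.03) in low RFI HF pigs and from -2.79 to 0.68 (median -1.60) in low RFI LF pigs. In the high RFI line, it ranged from -0.86 to 4.45 (median 1.95) with the HF diet and from -1.13 to 4.13 (median 2.37) with the LF diet. The lines overlapped at their edges: all 24 low RFI pigs lay below the high RFI median, 18 high RFI pigs lay above the highest low RFI pig, and 6 lay within the low RFI range. The line difference was -3.11 (SE 0.43), an FC of 8.61. The lowest low RFI pig, at -4.98, stood 2.18 below the next one and was the single pig not well above background. Without any 1 of the 48 pigs the line difference stayed between -3.25 and -2.93. It was -2.35 with the normexp background and -2.57 without subtraction.

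The second NRN1 probe, O10354, gave the same picture with a difference of -2.90 (SE 0.39, FC of 7.49). The 2 NRN1 probes share 8 bases at their ends, so they read adjacent stretches. In both lines, the widest gap with at least 3 pigs on each side lay at the same place for both probes, with 17 low RFI pigs below and 7 above it, and 6 high RFI pigs below and 18 above it. All 48 pigs were on the same side for both probes. These gaps spanned 0.75 in each line with A_72_P205617, and 0.86 and 0.65 in the low and high RFI lines with O10354, so none reached 1. NRN1 signal was widely spread, with an SD of 1.38 within the low and 1.60 within the high RFI line for A_72_P205617. Only 0.588% and 0.270% of all tested probes had a larger SD within the low and the high RFI line, and 1.11% and 1.05% had a wider gap.

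COL21A1 was read by 4 probes, of which 2 differed between lines. The probe A_72_P657949 ranged from -1.09 to 0.91 (median -0.24) in low RFI HF pigs and from -1.21 to 0.78 (median -0.16) in low RFI LF pigs. In high RFI pigs it ranged from -5.98 to -0.19 (median -1.74) with the HF diet and from -6.25 to -0.35 (median -1.28) with the LF diet. Every low RFI pig was above the high RFI median, 12 of them were above every high RFI pig, and 15 high RFI pigs were below the lowest low RFI pig. The line difference was 2.21 (SE 0.43), an FC of 4.64, but 7 of the 24 high RFI pigs were not well above background, so its size depends on how background was treated. It was 1.02 with the normexp background and 1.29 without subtraction.

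Within the high RFI line, COL21A1 signal fell into levels. The 7 lowest pigs ended at -4.52, and the next pig stood at -1.85, a gap of 2.67 that only 0.0486% of all tested probes exceeded in that line. None of these 7 pigs was well above background, so their own order carries no information and their distance to the others is a distance to background. Above the gap, 12 pigs lay between -1.85 and -0.98 and the remaining 5 between -0.35 and -0.19. Of the 7 lowest pigs 5 were fed the HF diet, of the 12 in the middle 3, and of the 5 highest 4. In the low RFI line, 12 pigs ended at -0.52 and 12 began at 0.04, a narrower gap of 0.57 with 6 pigs of each diet on each side.

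A different stretch of the COL21A1 transcript, read by A_72_P106971, was also higher in the low RFI line. It was well above background on 23 of the 24 arrays of the low RFI line and on 11 of the 24 of the high RFI line, so its fitted difference of 1.87 (SE 0.30) is largely one against background and its size is not read as a fold-change. The same 12 low RFI pigs were below and the same 12 above with both probes. The 5 highest high RFI pigs were also the 5 highest with this probe, where they lay at or above -3.08 with the next pig at -3.45. In the high RFI line, the widest gap of A_72_P106971 ran from -5.63 to -4.86. Of the 17 pigs above it 11 were well above background, and of the 7 below it 0. That gap thus lay among values at background, so agreement of the probes on the split cannot be read from it. As a description, 22 of 24 high RFI pigs were on the same side with both probes. An exception was a high RFI LF pig that had the lowest value of all with A_72_P657949, -6.25, and a value of -3.71 with A_72_P106971, inside the upper group. The other was a high RFI LF pig at -1.78 and -5.63.

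The COL21A1 probe O8400 did not show the line difference. Its values ran from 1.90 to 2.71 in the low RFI line and from 1.09 to 2.72 in the high RFI line, and the line log2 fold-change was 0.04 (SE 0.07). Pigs of the upper and lower groups were mixed in it, with 10 of 24 high RFI pigs on the same side as with A_72_P657949. The sequence of O8400 is shown because it carries the repeat of a collagen chain, in which glycine codons, which begin with GG, return at a fixed distance. It holds 6 GGN triplets, in capitals, spaced 9 bases apart, in all 6 possible places, while the other 3 COL21A1 probes hold at most 1 at that spacing.
O8400: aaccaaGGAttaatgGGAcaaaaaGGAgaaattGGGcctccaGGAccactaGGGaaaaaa

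No probe of another gene on the array shares 20 bases with O8400 on either strand, and whether it binds other collagen transcripts was not tested. The COL21A1 probe left out of the fit, A_72_P693194, ranged from -6.48 to -3.70 in the low RFI line and from -6.34 to -4.11 in the high RFI line, near background throughout.

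SLC35F3 was also over-expressed on average in the low RFI line. The probe A_72_P181831 ranged from -1.12 to 0.92 (median -0.04) in low RFI HF pigs and from -0.81 to 0.52 (median -0.19) in low RFI LF pigs. In high RFI pigs, it ranged from -2.86 to -0.32 (median -2.40) with the HF diet and from -2.67 to -0.46 (median -1.67) with the LF diet. In the low RFI line values formed a continuous band, with no gap wider than 0.18 between groups of 3 or more pigs. Among high RFI pigs, 13 lay between -2.86 and -2.29 and 11 between -0.86 and -0.32, with a gap of 1.43 between them. The 11 upper high RFI pigs fell inside the range of the low RFI line, whereas the 13 lower ones were all below it. The line difference of 1.55 (SE 0.23, FC of 2.93) was thus an average over 2 groups of high RFI pigs, 1 of which overlapped the low RFI line. It was 0.91 with the normexp background and 1.13 without subtraction, and the gap was then 0.58 and 0.93.

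A second SLC35F3 probe, O6974, reads almost the same bases and gave a difference of 1.48 (SE 0.25, FC of 2.80) with 12 high RFI pigs below a gap of 1.39 and 12 above it. The pair is shown because it serves as a repeated measurement of the split. They are shifted by 1 base and share 59, and the capital marks the base outside the overlap.
A_72_P181831: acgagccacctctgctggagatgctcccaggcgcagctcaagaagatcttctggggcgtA
O6974: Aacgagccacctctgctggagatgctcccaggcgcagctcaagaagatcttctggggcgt

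With these 2 sequences, 23 of 24 high RFI pigs were on the same side. The exception was a high RFI HF pig with -2.68 for A_72_P181831, in the lower group, and -0.72 for O6974, in the upper group. The third SLC35F3 probe, A_72_P489039, reads another stretch and did not show the difference. It ranged from -2.30 to -1.16 in the low RFI line and from -1.98 to -1.17 in the high RFI line, with a line log2 fold-change of -0.05 (SE 0.08) and a widest gap between neighbouring pigs of 0.16 in the low and 0.11 in the high RFI line. It was well above background on all 48 arrays.

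PDZK1IP1 was under-expressed in the low RFI line with the probe O10733. In low RFI pigs, values ranged from -4.00 to -2.55 (median -3.05) with the HF diet and from -3.68 to -0.62 (median -3.03) with the LF diet. A single low RFI LF pig, at -0.62, stood 1.79 above the next one, and the other 23 lay between -4.00 and -2.41. In high RFI pigs, values ranged from -3.97 to -0.77 (median -2.20) with the HF diet and from -3.43 to 1.78 (median -0.01) with the LF diet. In that line, 8 pigs lay at or below -2.72 and 16 at or above -1.68, with a gap of 1.04. The 8 lower pigs were within the range of the low RFI line, and 9 high RFI pigs were above the highest low RFI pig. The line difference was -1.74 (SE 0.31), an FC of 3.35. It was -0.92 with the normexp background and -1.17 without subtraction, and the widest gap of the high RFI line was then 0.33 and 0.41.

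The probe O10733 is printed because the other PDZK1IP1 probe did not share its pattern. No part of it is marked.
O10733: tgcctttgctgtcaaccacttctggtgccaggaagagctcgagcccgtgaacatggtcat

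The other probe, A_72_P088291, was well above background on all 48 arrays. It ranged from -0.94 to -0.12 in the low RFI line and from -0.72 to -0.11 in the high RFI line, with a line log2 fold-change of -0.09 (SE 0.06). Only 12 of 24 high RFI pigs were on the same side of the widest gap with both probes. For the assembly Sscrofa11.1, the RefSeq gene table lists the symbol PDZK1IP1 for 2 genes, both on chromosome 6. Which of them O10733 reads was not tested.

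OAZ3 was under-expressed on average in the low RFI line, with the widest gap in that line among the 5 genes when at least 3 pigs were required on each side. The probe A_72_P437459 ranged from -1.89 to 1.16 (median -1.19) in low RFI HF pigs and from -1.90 to 1.0 (median -1.20) in low RFI LF pigs. In high RFI pigs, it ranged from -2.16 to 1.80 (median 1.41) with the HF diet and from -1.43 to 1.66 (median 1.1) with the LF diet. In the low RFI line, 16 pigs lay between -1.90 and -1.08 and 8 between 0.63 and 1.16, with nothing in the gap of 1.71 between them. Each diet had 8 pigs below the gap and 4 above it. In the high RFI line, 22 pigs lay between 0.43 and 1.80. The other 2, an HF pig at -2.16 and an LF pig at -1.43, lay below a gap of 1.86, and both of their arrays were on slide 6. Above that gap, the widest one lay between 0.92 and 1.28 and spanned 0.35. The line difference was -1.65 (SE 0.31, FC of 3.14). Every low RFI pig lay below the high RFI median, and 13 high RFI pigs, those from 1.28 upwards, lay above the highest low RFI pig.

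The array held 2 further OAZ3 probes, and the sequences are shown because 1 of them repeats A_72_P437459. The probe O3277 has the same 60 bases as A_72_P437459. The capitals mark bases 38 to 60, with which 23 of the 24 bases of the reverse primer that the study used to measure OAZ3 by quantitative PCR in muscle can pair. In the primer, the capitals mark those bases.
A_72_P437459: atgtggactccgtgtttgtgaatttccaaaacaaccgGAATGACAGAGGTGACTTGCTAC
reverse primer: cGTAGCAAGTCACCTCTGTCATTC
A_72_P619999: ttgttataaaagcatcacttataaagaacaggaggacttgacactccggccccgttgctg

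The difference within a pig between the 2 spots of the same sequence had an SD of 0.17 in the low and 0.15 in the high RFI line. The largest departure of a pig from the median difference of its line was 0.41. These values cover the error of a spot but not that of the RNA or the array. All 48 pigs were on the same side with both spots. A_72_P619999, from another stretch of the OAZ3 transcript, showed the same division. Its line log2 fold-change was -0.86 (SE 0.16, FC of 1.82), and 24 of 24 low RFI pigs and 23 of 24 high RFI pigs were on the side given by A_72_P437459. The 8 upper low RFI pigs were the 8 highest with all 3 probes, and the 2 lower high RFI pigs were the 2 lowest with all 3 probes. The gap in the low RFI line was narrower for A_72_P619999, 0.41 from -1.23 to -0.82, and did not count as a split.

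**Figure D3:**
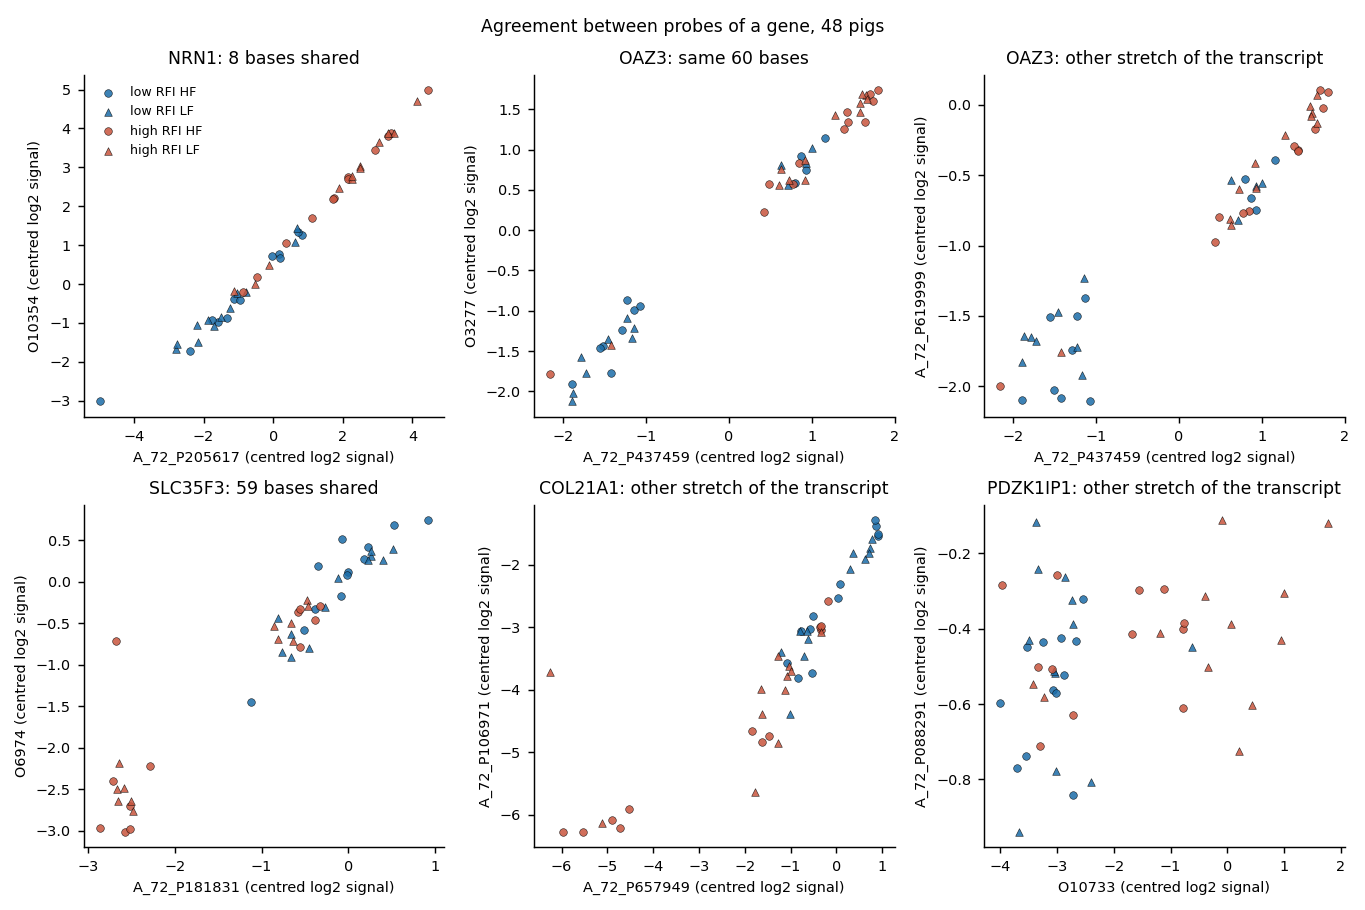
Centred log2 signal of 48 pigs with a probe of a gene (horizontal axis) against another probe of the same gene (vertical axis), with colours for line and symbols for diet. Pigs fall along a line for NRN1, OAZ3, SLC35F3 and COL21A1, with 1 high RFI pig off it for SLC35F3 and 2 for COL21A1, whereas the 2 PDZK1IP1 probes do not follow each other.

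A probe was counted as split in a line when its values left a gap of at least 1, a 2-fold step, with 3 or more pigs on each side. In the low RFI line, this held for 2 of the 13 probes, both with the OAZ3 sequence, beside 0.482% of all tested probes. In the high RFI line, it held for 4, namely A_72_P657949 of COL21A1, both overlapping SLC35F3 probes and O10733 of PDZK1IP1, beside 0.504%. The genes had been chosen with their divided values known, so these counts are a description. With other treatments of the background, normexp or no subtraction, the gaps shrank and no split remained in the high RFI line. The COL21A1 gap was then 0.72 and 0.91, the SLC35F3 gap 0.58 and 0.93 and the PDZK1IP1 gap 0.33 and 0.41, with 21 pigs below and 3 above for PDZK1IP1. COL21A1 still had 7 pigs below and 17 above and SLC35F3 13 and 11, and the low RFI line kept its OAZ3 gap at 1.15 and 1.34 with 16 pigs below and 8 above. The line differences were smaller too, 1.02 and 1.29 for COL21A1, 0.91 and 1.13 for SLC35F3, -0.92 and -1.17 for PDZK1IP1, -1.24 and -1.40 for OAZ3 and -2.35 and -2.57 for NRN1.

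**Figure D4:**
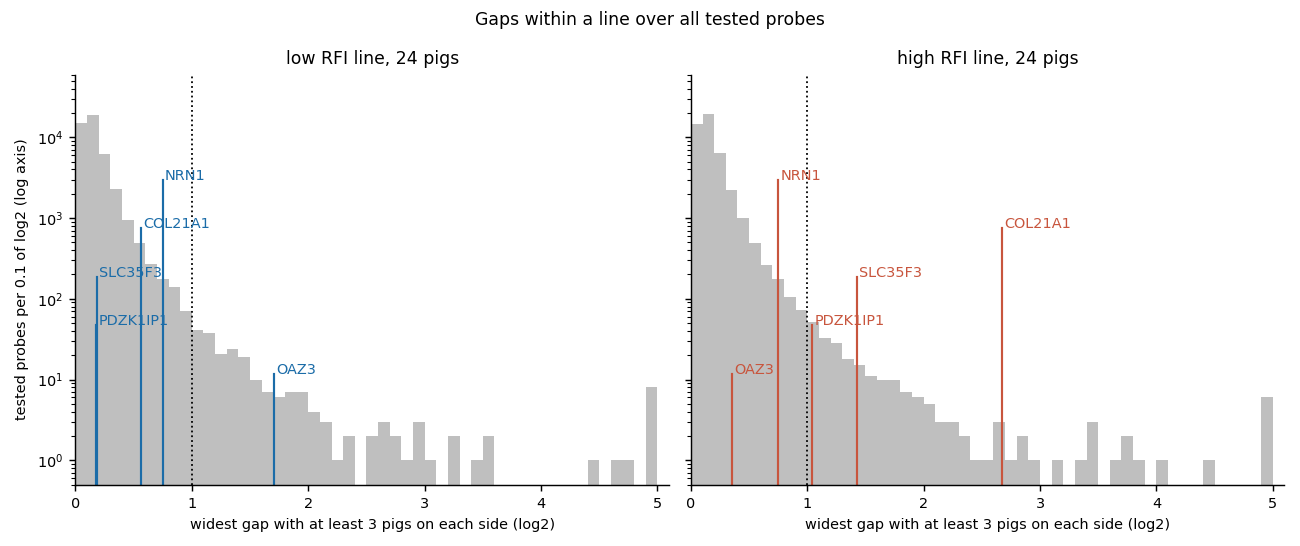
Widest gap within a line with at least 3 pigs on each side (horizontal axis, log2) over all 45236 tested probes, with the number of probes per bin on a log axis. The last bin also holds wider gaps, the dotted line marks a gap of 1, and vertical lines mark the probe with the largest line difference of each gene. OAZ3 lies past the dotted line in the low RFI line, and PDZK1IP1, SLC35F3 and COL21A1 do in the high RFI line.

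The pigs that were low for 1 gene were in part other pigs than those low for another. In the high RFI line, where COL21A1 and SLC35F3 were both split, 1 pig was in the lower group for both, 5 pigs were in the upper group for both, 6 were low for COL21A1 alone and 12 for SLC35F3 alone. For COL21A1 and PDZK1IP1, 4 pigs were low for both, 3 for COL21A1 alone and 4 for PDZK1IP1 alone. For SLC35F3 and PDZK1IP1, 2 were low for both, 11 for SLC35F3 alone and 6 for PDZK1IP1 alone. These counts were not tested.

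Diet was tested because the genes were not chosen by it. They were chosen with their divided values within lines known, however, and a diet difference widens the spread within a line. The P values for diet are therefore not fully independent of the choice. Of the 13 probes, 1 passed the threshold, O10733 of PDZK1IP1, beside 4.61% of all tested probes. PDZK1IP1 was under-expressed with the HF diet, by 1.06 on the log2 scale (-1.06, SE 0.31, an FC of 2.08), with P = 0.00112 from limma and P-BH = 0.0925 after Benjamini-Hochberg adjustment over all tested probes, so it did not reach a P-BH of 5%. When diets were permuted within lines (2-sided permutation test, 100000 resamples), P was 0.0024. Left out in turn, no pig moved the difference outside -1.20 to -0.96, with P between 9.08e-05 and 0.0022 and P-BH between 0.0384 and 0.135 from limma.

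The diet difference of PDZK1IP1 was -1.82 (SE 0.43, FC of 3.54) within the high RFI line, with P = 0.000109 and P-BH = 0.198 from limma and 0.0055 from the permutation test. In that line 715 of the tested probes, 1.58%, passed the threshold for diet. The 12 LF pigs held the higher values: 9 of them, from -0.40 to 1.78, were above the highest HF pig at -0.77. The other 3 LF pigs had values of -1.18, -3.23 and -3.43. Of the 12 HF pigs 6 were below the gap of that line and the other 6 lay between -1.68 and -0.77. Within the low RFI line, the difference was -0.30 (SE 0.43), with P = 0.496 and P-BH = 0.85 from limma and 0.30 from the permutation test, beside 2.68% of all tested probes past the threshold. The interaction of line and diet, which tests the difference between these values, was 1.53 (SE 0.61) with P = 0.0159 and P-BH = 1 from limma, and did not pass. None of the 13 probes passed for the interaction, beside 0.376% of all tested probes, and this 1 had an unadjusted P under 0.05.

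The interaction of PDZK1IP1 lay close to the threshold. It passed when any 1 of 6 pigs was left out, with P from 0.00228 to 0.00951. They were the low RFI LF pig at -0.62, the high RFI LF pigs at -3.23 and -3.43 and the high RFI HF pigs at -0.78, -0.78 and -0.77. The interaction also passed with the normexp background (1.02, P = 0.00307), without background subtraction (1.21, P = 0.00462) and with the deposited log2 values (1.22, P = 0.00478). Within a single scan day it did not pass (1.15, P = 0.136 on day 1 and 1.91, P = 0.047 on day 2, from limma). The other PDZK1IP1 probe had a diet difference of -0.05 (SE 0.06, P = 0.395 from limma).

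For the other genes, no diet difference passed the threshold, with P from 0.0842 to 0.96 from limma over their 11 tested probes. The log2 fold-change between diets was 0.13 (SE 0.43) for NRN1, -0.31 (SE 0.43) for COL21A1, 0.01 (SE 0.23) for SLC35F3 and 0.06 (SE 0.31) for OAZ3, each with the probe of the largest line difference. To pass at P under 0.01, a difference had to be well over its SE. Effects of diet larger than these errors, and not only small ones, could therefore have gone uncalled. The smallest P belonged to O8400 of COL21A1, with 0.13 (SE 0.07, P = 0.0842, P-BH = 0.416).

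Scan day divided the pigs evenly within groups, and the values within each day are given here. For SLC35F3 the diet difference was -0.56 (P = 0.038 from limma) among the 24 arrays of day 1 and 0.59 (P = 0.0472) among those of day 2 with A_72_P181831, and -0.63 (P = 0.0384) and 0.77 (P = 0.00339) with O6974. Adjusted over all tested probes, P-BH lay between 0.408 and 0.63 for these 4 values. All 6 high RFI HF pigs of day 1 were in the lower group with both probes, and of the 6 HF pigs of day 2, 1 was with A_72_P181831 and 0 with O6974. Among LF pigs, 2 of 6 were in the lower group on day 1 and 4 of 6 on day 2 with both probes. The interaction was 1.51 (P = 0.0072) on day 1 and -1.10 (P = 0.0612) on day 2 for A_72_P181831, and 1.95 (P = 0.00252) and -1.31 (P = 0.0109) for O6974. Whether the diet difference differed between days was not tested. PDZK1IP1 had a diet difference of -0.78 (P = 0.0468, P-BH = 0.637) on day 1 and -1.34 (P = 0.00722, P-BH = 0.449) on day 2, in the same direction, and 5 of its 6 high RFI HF pigs of day 2 were in the lower group compared with 1 of 6 on day 1. The line differences kept their direction on both days, and ranged from -3.43 to -2.78 for NRN1 and from 1.90 to 2.53 for COL21A1. They were 1.93 and 1.17 for SLC35F3, -2.24 and -1.24 for PDZK1IP1, and -2.18 and -1.12 for OAZ3 on day 1 and day 2.

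**Figure D5:**
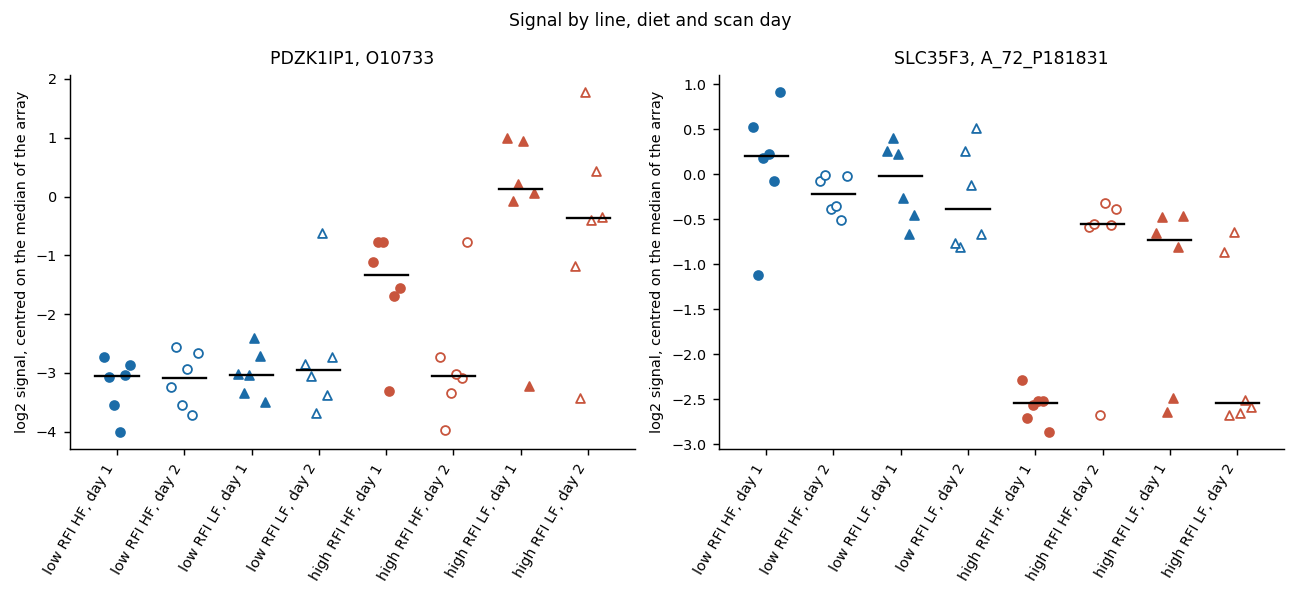
Centred log2 signal of PDZK1IP1 (left) and SLC35F3 (right) for every pig by line, diet and scan day, with black lines for the median of 6 pigs and open symbols for day 2. In the high RFI line, PDZK1IP1 was higher with the LF diet on both days, while the SLC35F3 values of HF pigs lay between -2.86 and -2.29 on day 1 and, but for 1 pig at -2.68, between -0.58 and -0.32 on day 2.

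The genes whose signal followed each of the 5 genes most closely from pig to pig were found after removing the mean of each line and diet group, over 48 pigs and all other tested probes with a symbol. Values of most of these genes fall into groups, so r also carries the side of a gap that a pig is on, and it is given as a description. SLC35F3 was followed by the ALPK3 probe O8270, which reads a kinase gene known from muscle, with r = 0.95 (0.98 in the low and 0.96 in the high RFI line). ALPK3 and SLC35F3 lie on different chromosomes of Sscrofa11.1, 7 and 14, and O8270 shares no run of 20 bases with the SLC35F3 probes. The next genes for SLC35F3 were RGP1 (r = -0.68) and PLEC (r = -0.58), PLEC with 0.20 in the low and -0.84 in the high RFI line.

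For COL21A1, the most alike was RGL2 (r = 0.88), with 0.34 in the low and 0.95 in the high RFI line, where COL21A1 was split. CYP39A1 (r = 0.64) and MOCS1 (r = 0.62) followed. All 3 lie on chromosome 7 with COL21A1, with 5, 226 and 116 listed genes between them and COL21A1, and 7.18% of the named genes tested with a listed chromosome are on chromosome 7. For OAZ3 the most alike was MRPL9 (r = -0.72), its immediate neighbour on chromosome 4, which encodes a mitochondrial ribosomal protein and ran opposite to OAZ3, with -0.79 in the low and -0.69 in the high RFI line. SMURF1 (r = 0.56) and SLC5A1 (r = -0.54) came next. NRN1, on chromosome 7, and PDZK1IP1 had no gene with r beyond 0.7 in either direction. The closest were C5AR1 (r = -0.57), VCAM1 (r = -0.55) and PIM1 (r = -0.54) for NRN1, and HDDC2 (r = -0.56), RELA (r = -0.53) and COIL (r = 0.50) for PDZK1IP1. Probes without a symbol were not ranked. The largest r among them, in either direction, was 0.96 in size for OAZ3 and 0.58 for PDZK1IP1, beyond the closest named gene of each. Among themselves, the 5 genes had r between -0.40 (COL21A1 with SLC35F3) and 0.27 (NRN1 with PDZK1IP1) over their 10 pairs.

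The pathways in which the genes act were looked at through lists of their genes. Counts are of genes with at least 1 probe past the threshold, beside 9.27% of all 10590 named genes for line and 6.01% for diet. Of 18 measured genes of polyamine metabolism, in which OAZ3 acts, 1 was under-expressed in the low RFI line and 0 over-expressed. It was AZIN1, an inhibitor of antizymes, past the threshold with 1 of 7 probes (-0.15, SE 0.05, P = 0.00755, P-BH = 0.119 from limma). ODC1, the target of antizymes, and the related OAZ1 and OAZ2 did not pass, with differences of -0.10, 0.04 and -0.06 for the probe of lowest P of each. With the HF diet 2 of the 18 were under-expressed, the enzymes of polyamine synthesis and breakdown AMD1 and SAT1. AMD1 passed with 1 of 2 probes (-0.23, P = 0.00482, P-BH = 0.152 from limma) and SAT1 with 1 of 8 (-0.21, P = 0.0031, P-BH = 0.132). The median line difference over the list was -0.01, beside 0.01 over all named genes.

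Of 14 measured fibrillar and fibril-associated collagens, the relatives of COL21A1, 3 were over-expressed in the low RFI line. They were COL14A1 with 5 of its 12 probes (0.22, P-BH = 0.00881), COL16A1 with both of its probes (0.29, P-BH = 0.0246) and COL1A2 with 1 of 4 (0.17, P-BH = 0.0984). COL12A1, another fibril-associated collagen, had 0.26 (P = 0.0266) and did not pass. The median line difference over the list was 0.11. With the HF diet, COL5A2 was over-expressed with 1 of 4 probes (0.33, P-BH = 0.0404), and 2 of the 12 COL14A1 probes were lower. The line differences of these 3 collagens were between 0.17 and 0.29.

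The SLC35 family, whose members mostly carry nucleotide sugars, had 15 measured members. Over-expressed in the low RFI line were SLC35B2 (0.22, P-BH = 0.00368, 3 of 4 probes), SLC35A5 (0.26, P-BH = 0.00903) and SLC35B3 (0.17, P-BH = 0.116, 1 of 4 probes). The SLC35B3 probe of highest mean had 0.06 and did not pass. SLC35A2 (-0.20, P-BH = 0.128) was under-expressed. Of 12 measured genes of thiamine transport and use, 1 was over-expressed, the folate and thiamine phosphate carrier SLC19A1, with both probes (0.21, P-BH = 0.0302). Of 22 genes that build and attach the anchor that NRN1 carries, PIGL was over-expressed (0.83, SE 0.22, P-BH = 0.0187) and PIGY under-expressed (-0.76, SE 0.15, P-BH = 0.00095). Of 10 genes of PDZ proteins and their transporters, ABCC2, a canalicular export pump, was over-expressed with 1 of 5 probes (0.31, P-BH = 0.11), while PDZK1 itself had 0.10 (P = 0.169). Diet moved 0 genes of these 4 lists past the threshold.

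Genes next to the 5 genes in the reference table, up to 5 on each side, were looked at too. For OAZ3, 1 of 5 measured neighbours passed, MRPL9, over-expressed in the low RFI line with both probes (means 5.13 and 4.88, difference 0.25, P-BH = 0.000402). For COL21A1, 2 of 7 did. DST, which encodes a large cytoskeletal linker protein, had 3 probes higher and 1 lower of 5, the strongest being lower (-0.33, P-BH = 0.000412), and WDR46 had 1 of 3 probes lower (-0.16, P-BH = 0.0395). For NRN1, 2 of 4 did, FARS2 with 1 of 2 probes (0.14, P-BH = 0.123) and F13A1 (-0.80, P-BH = 0.0779), the latter above background on only 12 arrays. Of 4 measured neighbours of SLC35F3 and 5 and 2 of the PDZK1IP1 genes, 0 passed. With diet, VPS52 and WDR46 beside COL21A1 passed, with 1 of 2 probes (-0.39, P-BH = 0.0684) and 1 of 3 (0.34, P-BH = 0.107). Their probes of highest mean had 0.02 and -0.09, opposite in sign, and did not pass.

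Markers of other cells of the liver were compared with the genes from pig to pig, as a mean over each of 10 lists of markers, after removing group means. The r values lay between -0.43 and 0.32 over 48 pigs. The strongest was that of NRN1 with markers of Kupffer cells and macrophages (r = -0.43). All 7 measured markers of that list were above background on all arrays, 2 of them were under-expressed in the low RFI line and 0 over-expressed, and their mean ranged from 3.0 to 3.88 in low RFI HF, from 2.74 to 3.49 in low RFI LF, from 2.95 to 3.72 in high RFI HF and from 3.09 to 3.94 in high RFI LF pigs. NRN1 had r = -0.40 with 5 markers of T and NK cells, of which 0 differed between lines, and COL21A1 had r = -0.36 with 7 hepatocyte markers. The median log2 intensity of an array had r between -0.13 and 0.29 with the 5 genes. The part of cell types and of array intensity in the values was not tested.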

How the data were processed

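Liver RNA of 48 pigs was hybridized to 1-colour Agilent arrays, 1 per pig, and groups were taken from the labels. The authors deposited, for each array, the output of Feature Extraction 10.7.3.1, in which every spot has a mean, median and background-subtracted intensity, not normalized between arrays. A second table of log2 values, made by the authors in R 2.10.0 from median intensities and centred on each sample, was deposited too and used here as an alternative. It holds 12 of the 13 tested probes.

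Here, 1319 control spots were left out, 483 outlier spots were set to missing, and background-subtracted intensities were taken to log2, and the median of each array was set to 0. Probes had to be well above background on 12 or more arrays, so a tested probe could still be at background on the others. The number of arrays limits the precision for all probes. Line, diet and their interaction were fitted with limma 3.58.1 in R 4.3.3 (prior degrees of freedom 2.8) over all 45236 tested probes, with Benjamini-Hochberg adjustment over them (P-BH). A difference was called at P under 0.01 and FC over 1.1. Single values were also compared between diets with a permutation test.

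In each line, the widest gap between ordered values with at least 3 pigs on each side was found, and a gap of at least 1 was counted as a split. mclust 6.1.1 was an alternative. Symbols came from the Sscrofa11.1 reference table (7077 probes) or the scanner output (20302), and 32926 probes had none. Probe sequences were read from the scanner output and the primer from a supplementary file of the study. Named were all probes of the 5 genes, the 3 genes most alike to each, and, of each list, genes past the threshold. ODC1, OAZ1, OAZ2, COL12A1 and PDZK1 were named for their role, after their values were seen. The members, the lists and the tests were chosen with earlier results of these data known. The steps were tested on simulated data. Alternatives were the model without moderated variances, other centring, normalization, background and filters, outlier spots kept, slide as a block, each scan day, and other gaps. Leaving out each pig was chosen after seeing the data.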

Additional observations from a re-analysis of the deposited data

How the results depend on the processing

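Pigs could not be paired from the labels, which give every pig the same replicate number, so slide was the block used. The line differences kept their direction under the alternatives run and without each pig, except that the filter on all arrays left no value for the main probes of NRN1, COL21A1 and PDZK1IP1. Of the 13 probes, 10 were past the threshold for line, the contrast they were chosen by, so this count is a description. It was 6 with a filter on all arrays (9 probes tested) and on scan day 2 alone. For diet, 1 passed, and 0 with the filter on all arrays and on day 1 alone, where PDZK1IP1 had -0.78, and 2 on day 2 alone. For the interaction, 0 passed, and 1 with normexp, without background subtraction, with the deposited values and when a low RFI pig with the highest PDZK1IP1 value (1.73, P = 0.00523 from limma) was left out, 2 on day 1, and 0 to 1 without each pig in turn. Splits numbered 2 in the low and 4 in the high RFI line. They were 5 and 7 with a gap of 0.5, 1 and 1 with a gap of 1.5, 6 and 9 by mclust (which put PDZK1IP1 in 1 group in the high RFI line, and NRN1 there in groups of 6 and 18 pigs with A_72_P205617 and in 1 group with O10354), 4 and 7 on day 2 alone, and in the high RFI line 2 on day 1 alone and with the filter on all arrays, and 0 with normexp, without subtraction and in the deposited values. The mclust counts do not apply the rule of 3 pigs on each side. They are of probes fitted with more than 1 group, and some of these groups held 1 or 2 pigs. No share of all tested probes stands beside the counts of splits under these alternatives, so they are a description. Of the listed and neighbouring genes, 6 passed for diet, 3 in the deposited values and 2 with the probe of highest mean. Of the 15 genes most alike, 7 were kept with Spearman, 2 in the low and 4 in the high RFI line alone. The causes of these changes were not tested. Centring on the 75th percentile and slide as a block left the counts of calls for the 13 probes as they were. Quantile normalization did so for line, diet and the interaction, and gave 5 splits in the high RFI line.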
